A study of Mus musculus with 34 samples.

Results

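The HoxC genes were examined in RNA-seq of mouse limb buds with and without Hnrnpk. The cluster holds 9 protein-coding genes, Hoxc4, Hoxc5, Hoxc6, Hoxc8, Hoxc9, Hoxc10, Hoxc11, Hoxc12 and Hoxc13, which were taken by gene symbol from the 22040 genes of the expression table. All 9 were found, and 8 of them passed a minimum mean of 0.5 FPKM (fragments on a gene, per kilobase of its length and scaled to library size) and entered the test with 12305 genes in all. Limb buds of E11.5 WT embryos (Hnrnpk WT) were compared with limb buds of CKO embryos (Prrx1-Cre;Hnrnpk fl/fl), with 3 libraries in each group. In the CKO, the Cre recombinase is driven in the limb bud mesenchyme and the calvarium, and it removes the floxed exons of Hnrnpk, which encodes an RNA- and DNA-binding protein. The libraries hold whole limb bud cells, so the RNA of cells in which Prrx1-Cre is not active, such as blood and ectoderm, was read as well. Neither the labels nor the methods for RNA-seq say which limb buds, fore or hind, each library held, or whether a library is 1 embryo or a pool, and the study names the libraries of a group biological replicates. Samples of the series from other assays were not used here.

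Hox genes encode homeodomain transcription factors that give cells of the embryo their position along the body and limb axes. Genes at the 3' end of a cluster are switched on earlier and further to the head, and genes at the 5' end later and further to the tail. The HoxC cluster differs from HoxA and HoxD in the limb: its 3' genes Hoxc4 and Hoxc5 are known from the forelimb bud, and its 5' genes Hoxc10 and Hoxc11 from the hindlimb bud. Tbx5 marks the forelimb bud in the same way, and Tbx4 and Pitx1 mark the hindlimb bud.

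In the CKO limb buds, the mean levels of the 3' HoxC genes were lower than in WT, and those of 4 of the 5 genes at the 5' end were higher, with Hoxc12 as the exception. The 4 genes at the 3' end (Hoxc4, Hoxc5, Hoxc6 and Hoxc8) had lower means, by 14.6% to 32.4%, and Hoxc9, Hoxc10 and Hoxc11 had higher means, by 13.5% to 27.9%. The remaining genes of the 5' end were near the filter on low values. Hoxc13 (54.5% higher) passed it only through its CKO libraries, with means of 0.410 FPKM in WT and 0.633 in CKO, and Hoxc12 (a change of -38.8%) did not pass it. None of the 8 passed an adjusted p of 0.05 in limma's test across all genes, a threshold that 0.0650% of all genes tested passed. At an unadjusted p under 0.05 there were 3 of the 8, Hoxc5 and Hoxc6 with lower and Hoxc10 with higher values, where 8.31% of all genes tested reached this level. With voom on recovered whole reads, the count at the adjusted threshold was also 0. With the replicate numbers as a block, 1 of the 8 passed the adjusted threshold, Hoxc6, against 2.81% of all genes tested. Groups were fully apart, with every CKO library under every WT library, for 2 of the 8 genes, Hoxc5 and Hoxc6, as for 8.86% of all genes tested. All 3 CKO values lay above all 3 WT values for another 2, Hoxc10 and Hoxc13, as for 5.63% of all genes tested, although Hoxc13 entered the test through its CKO values alone. The median log2 fold change (CKO minus WT) was -0.49 over the 4 genes at the 3' end, against 0.00 over all genes tested. It was 0.28 over all 5 genes at the 5' end with no filter, and also 0.28 over Hoxc9, Hoxc10 and Hoxc11. Of those 5 genes, 4 were above 0 and Hoxc12 was at -0.55. The cluster was split into these ends with the values known, so the medians describe the split and do not test it.

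**Figure D1:**
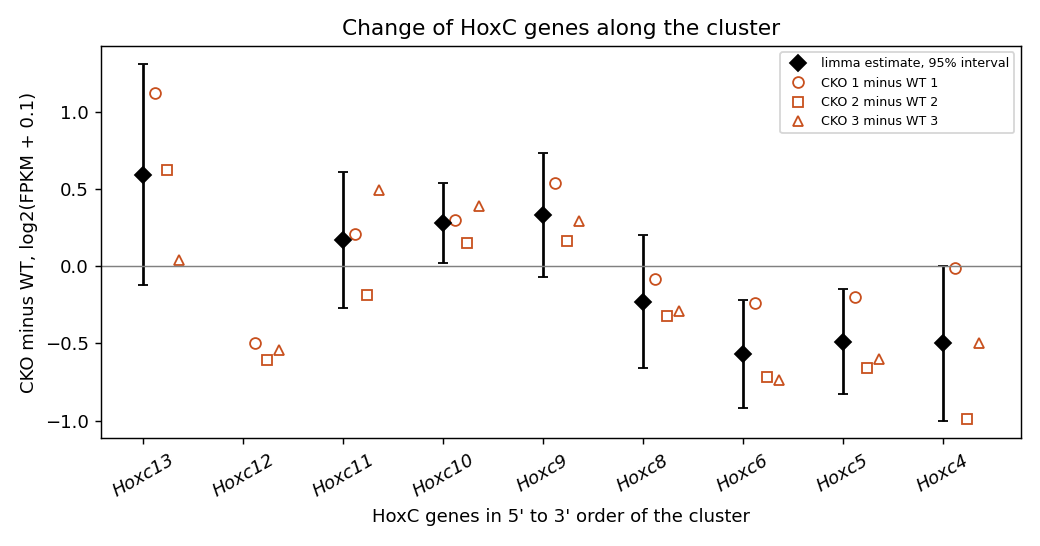
Difference of log2(FPKM + 0.1) between CKO and WT (vertical axis) for the HoxC genes in their order on the chromosome (horizontal axis). Black diamonds are limma estimates with 95% intervals, which for Hoxc12 were not fitted, and open symbols are the differences between the CKO and WT libraries of the same replicate number. The estimates of Hoxc9, Hoxc10, Hoxc11 and Hoxc13 (0.17 to 0.59) lie above 0 and those from Hoxc8 to Hoxc4 (-0.57 to -0.23) below it, while the differences of Hoxc12 (-0.61 to -0.50) also lie below 0.

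Some features of these libraries touch every gene. Hnrnpk itself, in which a part of the exons is deleted and the rest is still read, was at 193.0, 194.6 and 185.2 FPKM in the WT libraries (here and throughout in the order of replicates 1, 2 and 3), and at 127.1, 142.0 and 135.3 in the CKO libraries. The groups did not overlap for Hnrnpk, yet its adjusted p was 0.334, so the adjusted threshold of this design was not passed by the targeted gene. The limb mesenchyme markers summed to 367.1 to 405.4 FPKM in WT and 310.4 to 353.3 in CKO. Of these 9 markers 0 were called, while 7 were lower and 2 higher in CKO, with a median log2 fold change of -0.16. For the erythroid markers the sums were 37551 to 63707 FPKM (WT) and 30642 to 142364 (CKO), and for the muscle markers 5.66 to 23 and 16.6 to 26. The summed FPKM were 45.2 to 75.9 in WT and 49.6 to 77.8 in CKO for the ectoderm markers, 16.4 to 26.1 and 12.6 to 17.3 for the endothelial, 6.97 to 11.2 and 7.53 to 12.9 for the macrophage, 7.29 to 8.09 and 6.18 to 7.21 for the neural, and 9.73 to 19.5 and 12.1 to 14.3 for the nephrogenic and coelomic markers. The somite and trunk markers summed to 41.4 to 59.1 in WT and 43.1 to 52.8 in CKO. Pax1 was the only gene of these marker lists called with the block (adjusted p = 0.0414, and 0.430 without it). The part of any of these cells in the HoxC differences was not tested. In bulk tissue, fewer cells that transcribe a gene and less RNA of it per cell cannot be told apart.

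The genes lie in a row on the plus strand of chromosome 15, from Hoxc13 at the 5' end to Hoxc4 at the 3' end, over positions 102921103 to 103036852 of GRCm38. In WT limb buds, the highest level was that of Hoxc10, at 18.1 FPKM ± 0.360 (SD, n = 3), and the next was that of Hoxc11, at 9.35 ± 1.44. Hoxc6 (5.79 ± 0.201), Hoxc4 (4.82 ± 0.291), Hoxc9 (3.87 ± 0.289), Hoxc5 (2.82 ± 0.238) and Hoxc8 (2.26 ± 0.251) followed in that order. The WT values of neighbours in this order did not overlap, although Hoxc5 and Hoxc8 were apart by little, with 2.57 as the lowest value of Hoxc5 and 2.55 as the highest of Hoxc8. Hoxc12 (0.436 ± 0.277) and Hoxc13 (0.410 ± 0.185) were the lowest, and their values overlapped. In CKO limb buds, Hoxc9 was in rank 3 in place of rank 5, ahead of Hoxc6 and Hoxc4, with values that overlapped those of both. Hoxc5 and Hoxc8, with means of 1.98 and 1.93 in CKO, also overlapped.

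**Figure D2:**
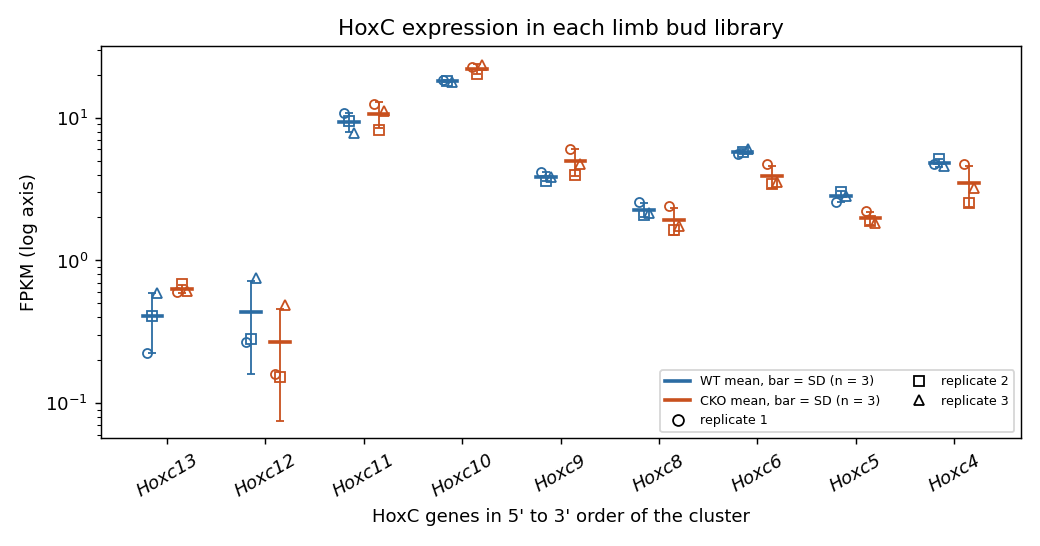
FPKM of each HoxC gene (vertical, log axis) in WT (blue) and CKO (orange) limb buds, with genes in 5' to 3' order. Each symbol is 1 library, lines are means and bars are SD (n = 3). Hoxc10 is the highest gene in both groups, and the CKO values of Hoxc5 and Hoxc6 lie below the WT values.

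Hoxc6 (ENSMUSG00000001661, chr15:102998257-103011881) had the lowest p of the cluster. It belongs to the thoracic and forelimb-level Hox genes. Its FPKM were 5.60, 5.76 and 6.0 in the WT libraries, and 4.73, 3.45 and 3.55 in the CKO libraries. WT libraries lay close together, the CKO libraries were all lower, and CKO replicate 1 was the nearest to WT. In limma the log2 fold change of Hoxc6 was -0.57 (SE 0.15, 95% interval -0.92 to -0.22), a CKO mean of 0.676 times the WT mean. The unadjusted p was 0.00584 and the adjusted p was 0.358 in limma. With the replicate block the adjusted p was 0.0410, and across all alternatives it ranged from 2.7e-04 to 1. Behind these values stood 243 to 332 reads per WT library and 159 to 206 per CKO library.

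Hoxc5 (ENSMUSG00000022485, chr15:102967443-103017429), a group 5 gene of the forelimb and lower neck level, had 2.57, 3.04 and 2.83 FPKM in WT and 2.22, 1.89 and 1.83 in CKO. The groups did not overlap, although the highest CKO library and the lowest WT library, both replicate 1, were near each other. For Hoxc5 the log2 fold change was -0.49 (SE 0.15, 95% interval -0.83 to -0.15) with an unadjusted p of 0.0110 and an adjusted p of 0.425 in limma. The annotated span of Hoxc5 starts within Hoxc10, through a transcript that is not protein-coding. The exons of these genes share 166 bases on the same strand, 5.4% of the exons of Hoxc5 and 8.7% of those of Hoxc10, so reads there are of uncertain origin.

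Hoxc4 (ENSMUSG00000075394, chr15:103018934-103036852), the last gene at the 3' end, had 4.75, 5.14 and 4.57 FPKM in WT and 4.71, 2.54 and 3.20 in CKO. CKO replicate 1 lay among the WT libraries and the other two CKO libraries lay below them, so the groups overlapped. Hoxc4 had a log2 fold change of -0.50 (SE 0.22, 95% interval -1.0 to 0.00, adjusted p = 0.601 in limma). Between libraries of the same number, the differences were -0.01, -0.99 and -0.50 on the log2 scale, the widest range among the 3' genes. Without CKO replicate 1 the log2 fold change was -0.74, and without CKO replicate 2 it was -0.30.

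Hoxc8 (ENSMUSG00000001657, chr15:102990607-102994111), which patterns the thoracic skeleton and brachial motor neurons, differed the least of the 3' genes. Its FPKM were 2.55, 2.08 and 2.15 in WT and 2.40, 1.64 and 1.75 in CKO, and the groups overlapped. Its log2 fold change was -0.23 (SE 0.18, 95% interval -0.66 to 0.20, adjusted p = 0.815 in limma). Hoxc8 is also the known target of a microRNA of its own cluster, miR-196a, whose gene Mir196a-2 lies between Hoxc10 and Hoxc9. The mature sequence is shown, from RefSeq on GRCm38.p6 (chr15:102973365-102973386, plus strand), with its seed, bases 2 to 8, in capitals, followed by both stretches of the 3' untranslated region of Hoxc8 that match the seed, at chr15:102992976-102992997 and chr15:102993733-102993754 on the plus strand, with the match in capitals.
mmu-miR-196a-5p: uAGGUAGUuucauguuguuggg
Hoxc8, first match: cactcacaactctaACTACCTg
Hoxc8, next match: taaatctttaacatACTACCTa
The motif ACTACCT was searched on the transcript strand alone, in the longest annotated 3' untranslated region of each gene (GENCODE vM21). Of the 9 HoxC genes, 1 held it, and so did 840 of 12172 tested genes with such a region (6.9%). Among the 39 Hox genes of all clusters, 9 held it, so the motif is not particular to Hoxc8. The match is a description of the sequence, and the microRNA itself is not among the genes measured here.

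Hoxc10 (ENSMUSG00000022484, chr15:102966796-102971893), a hindlimb and lumbar gene, was the most abundant member. Its FPKM were 18.5, 18.1 and 17.8 in WT and 22.8, 20.1 and 23.4 in CKO. The 3 WT libraries were nearly equal, and every CKO library lay above them. Hoxc10 had a log2 fold change of 0.28 (SE 0.11, 95% interval 0.02 to 0.54) with an unadjusted p of 0.0360 and an adjusted p of 0.561 in limma. Between libraries of the same number, CKO was higher by 0.30, 0.15 and 0.39 on the log2 scale. Hoxc10 had 637 to 1065 reads per library, the most of the cluster.

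Hoxc9 (ENSMUSG00000036139, chr15:102976439-102985099), which acts at the thoracic level, also in motor neurons, had 4.15, 3.58 and 3.87 FPKM in WT and 6.07, 4.0 and 4.76 in CKO. CKO replicates 1 and 3 lay above all WT libraries and CKO replicate 2 lay between them. For Hoxc9 the log2 fold change was 0.33 (SE 0.17, 95% interval -0.07 to 0.73, adjusted p = 0.681 in limma). Leaving out CKO replicate 1 moved it to 0.17.

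Hoxc11 (ENSMUSG00000001656, chr15:102954427-102957708), a hindlimb gene next to Hoxc10, had 10.8, 9.41 and 7.87 FPKM in WT and 12.5, 8.22 and 11.1 in CKO. The groups overlapped, and CKO replicate 2 was lower than WT replicates 1 and 2. Hoxc11 had a log2 fold change of 0.17 (SE 0.19, 95% interval -0.27 to 0.61, adjusted p = 0.867 in limma). It was the smallest difference of the 8 tested genes.

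Hoxc13 (ENSMUSG00000001655, chr15:102921103-102928814), known for its role in hair and nails, and Hoxc12 (ENSMUSG00000050328, chr15:102936757-102938609) were near the limit of detection. Hoxc13 had 0.225, 0.407 and 0.596 FPKM in WT and 0.606, 0.679 and 0.613 in CKO, from 10 to 36 reads per library. Its groups did not overlap, but WT replicate 3 and CKO replicate 1 were nearly equal. For Hoxc13 the log2 fold change was 0.59 (SE 0.31, 95% interval -0.12 to 1.31, adjusted p = 0.681 in limma), and with each library left out in turn it ranged from 0.30 to 0.85. Hoxc12 had 0.269, 0.284 and 0.756 FPKM in WT and 0.161, 0.152 and 0.488 in CKO. These rest on 3 to 17 reads per library, replicate 3 was the highest in both groups, and the groups overlapped. Between libraries of the same number, CKO differed by -0.50, -0.61 and -0.54 on the log2 scale, against the direction of the other 5' genes. An exact two-sided permutation test of Hoxc12 gave p = 0.50. For the other 8 genes this test gave 0.10 to 0.40, and 3 libraries against 3 cannot give a p under 0.10.

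The total HoxC level overlapped between the groups, while its make-up differed. Summed over the 9 genes, the level was 49.4, 47.8 and 46.4 FPKM in WT and 56.2, 42.7 and 50.7 in CKO. Hoxc4, Hoxc5, Hoxc6 and Hoxc8 together held 31.3%, 33.5% and 33.5% of that sum in WT and 25.0%, 22.3% and 20.4% in CKO. Each CKO share lay below each WT share, with means of 22.6% ± 2.33 and 32.8% ± 1.27 (SD, n = 3). Since it is a ratio within a library, this share does not depend on how libraries were scaled to each other. The ratio of Hoxc10 to Hoxc6 was 3.31, 3.14 and 2.97 in WT and 4.83, 5.83 and 6.59 in CKO. This pair and the split of the cluster were chosen with the values known, so no test was made of them.

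Replicate 1 departed from the other replicates in the 3' genes. For the 4 genes at the 3' end, the median difference between CKO and WT was -0.14 on the log2 scale for replicate 1, -0.69 for replicate 2 and -0.55 for replicate 3. For all 5 genes at the 5' end, Hoxc12 included, it was 0.30, 0.15 and 0.29. The erythroid markers also stood apart by replicate, with sums of 30642, 142364 and 85112 FPKM in the CKO libraries, 37551, 63007 and 63707 in the WT libraries, and median log2 differences of -0.26, 1.07 and 0.53. Their part in the HoxC values was not tested. With replicates 2 and 3 alone, Hoxc4 (log2 fold change -0.74, adjusted p = 5.6e-04 in limma), Hoxc5 (-0.63, adjusted p = 0.00589) and Hoxc6 (-0.73, adjusted p = 2.7e-04) passed the adjusted threshold and fell. These were 3 of the 8 members, where 15.0% of all genes tested passed in that fit. It leaves out the replicate in which these 3 genes differed the least, so its p-values are no separate test of a fall. No HoxC gene at the 5' end passed in that fit.

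Limb type genes were read beside the HoxC genes. Tbx5, the forelimb T-box gene, had 20.3, 19.1 and 19.2 FPKM in WT and 15.3, 7.30 and 9.58 in CKO. All CKO libraries were lower, and replicate 1 was again the nearest to WT. The log2 fold change of Tbx5 was -0.93 (SE 0.24, adjusted p = 0.358 in limma), with an adjusted p of 0.00734 with the replicate block. Pitx1, the hindlimb homeobox gene, had 37.7, 46.6 and 39.8 FPKM in WT and 48.9, 47.9 and 49.9 in CKO (log2 fold change 0.25, adjusted p = 0.663). Tbx4 had 27.6, 24.6 and 25.9 in WT and 31.3, 22.5 and 24.8 in CKO, with overlapping groups. Isl1 had 3.52, 1.87 and 2.06 in WT and 2.86, 3.34 and 2.72 in CKO, also with overlap. The ratio of Tbx5 to Pitx1 was 0.538, 0.409 and 0.483 in WT and 0.313, 0.152 and 0.192 in CKO. Across the 6 libraries, the log2 level of Tbx5 and that of the summed 3' HoxC genes had a Pearson r of 0.991, which was in rank 9 of 11183 genes, and that of Tbx5 and the summed 5' HoxC genes had -0.304. The hindlimb genes had r with the summed 3' and 5' HoxC genes of 0.528 and 0.539 (Tbx4), -0.609 and 0.582 (Pitx1), and -0.485 and 0.374 (Isl1), so Tbx4 did not separate the ends of the cluster. These values are descriptions over 6 libraries that share their group and scaling. The share of forelimb tissue per library is not given, and its part in the HoxC differences was not tested.

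**Figure D3:**
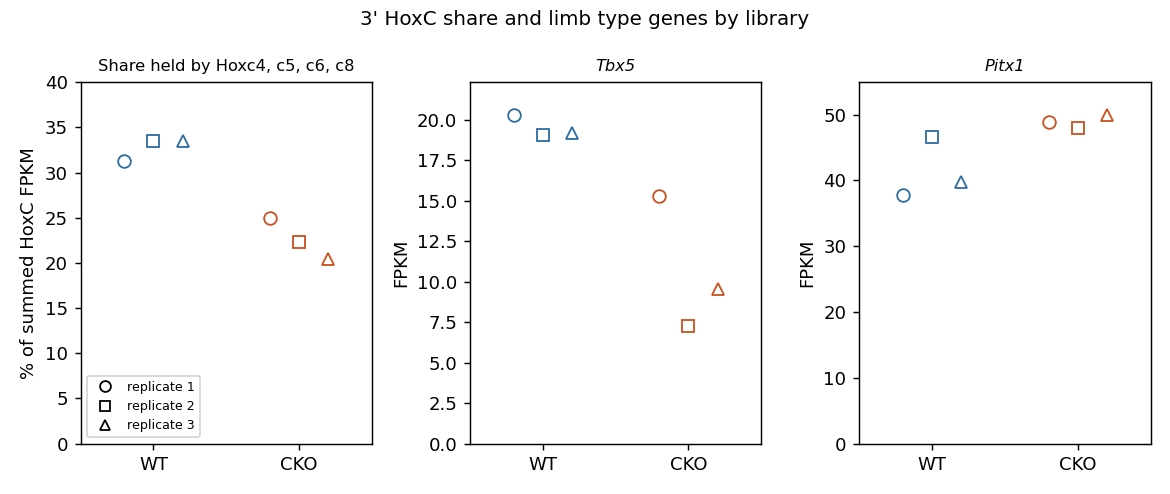
Share of the summed HoxC FPKM held by Hoxc4, Hoxc5, Hoxc6 and Hoxc8 (left, percent), and FPKM of Tbx5 (middle) and Pitx1 (right), in each WT (blue) and CKO (orange) library. Each symbol is 1 library. The 3' share is 31.3% to 33.5% in WT and 20.4% to 25.0% in CKO, while Tbx5 is 19.1 to 20.3 FPKM in WT and 7.30 to 15.3 in CKO.

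The genes whose pattern over the libraries was most like the summed 3' HoxC genes, among 11183 genes outside the cluster with a mean of at least 1 FPKM, were Tead3 (Pearson r = 0.996), Gdpd5 (0.995) and Adpgk (0.995). Those most like the summed 5' HoxC genes were Ipo4 (0.992), Gtpbp1 (0.986) and Pcbp2 (0.981). Among the HoxC genes themselves, the log2 levels of Hoxc4, Hoxc5, Hoxc6 and Hoxc8 had pairwise r of 0.61 to 0.96 over the 6 libraries. Hoxc9, Hoxc10 and Hoxc11 had 0.67 to 0.83. With these genes, Hoxc12 had -0.34 to -0.27 and Hoxc13 had -0.23 to 0.49. Between the ends of the cluster, Hoxc10 had -0.73 with Hoxc6, -0.81 with Hoxc5, -0.42 with Hoxc4 and -0.29 with Hoxc8. Hoxc9 ranged from -0.5 to 0.24 and Hoxc11 from -0.27 to 0.42 with the 3' genes, so the ends were not opposed in every pair. These correlations include the difference between the groups and rest on 6 points.

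HoxC genes were also set beside their paralogues, the genes of the same group in the other clusters. At the 3' end, the differences of HoxC and its paralogues were alike in sign. Hoxc4 (-0.50 on the log2 scale) stood beside Hoxa4 (-0.46), Hoxb4 (-0.35) and Hoxd4 (-0.54), and Hoxc5 (-0.49) beside Hoxa5 (-0.28) and Hoxb5 (-0.27). Hoxc6 (-0.57) stood beside Hoxa6 (-0.17) and Hoxb6 (-0.29), genes whose WT libraries ranged from 4.92 to 15.9 and from 1.56 to 4.32 FPKM, against 5.60 to 6.0 for Hoxc6. In groups 9 to 11 the signs parted. Hoxc9 (0.33) stood against Hoxa9 (-0.65), Hoxb9 (-0.22) and Hoxd9 (-0.55), and Hoxc10 (0.28) against Hoxa10 (-0.27) and Hoxd10 (-0.24). Hoxc11 (0.17) stood against Hoxa11 (-0.07) and Hoxd11 (-0.27), while in group 13 Hoxc13 (0.59), Hoxa13 (0.38) and Hoxd13 (0.20) had the same sign. In group 12, Hoxc12 (-0.55 with no filter) and Hoxd12 (-0.14) shared their sign as well.

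The differences of HoxC genes from their paralogues were tested within libraries, as the log2 level of the HoxC gene minus that of the paralogue, in 18 pairs. The widest gap was that of Hoxc9 and Hoxa9. Hoxa9 had 26.8, 23.2 and 23.4 FPKM in WT and 19.8, 12.6 and 14.8 in CKO, all lower, while the mean of Hoxc9 was higher in CKO. The log2 fold change of Hoxc9 exceeded that of Hoxa9 by 0.98, with 0.97, 1.03 and 0.95 for replicates 1, 2 and 3, and it exceeded that of Hoxd9 by 0.88. Replicate 1 did not stand apart in the gap to Hoxa9. Hoxc10 exceeded Hoxa10 by 0.55 and Hoxd10 by 0.53, and Hoxc8 exceeded Hoxd8 (log2 fold change -0.76) by 0.53. The log2 fold changes of Hoxc4, Hoxc5 and Hoxc6 differed from those of their paralogues by -0.40 to 0.04. An exact two-sided permutation test gave the smallest p that 3 against 3 allows, 0.10, for 7 of the 18 pairs. The Benjamini-Hochberg adjusted value for these was 0.257. Several of the 7 pairs share Hoxc9 or Hoxc10, and another holds Hoxc13, which passed the filter only through its CKO values. The share of other gene pairs that reach this p was not counted, so the 7 are not read as an excess. No pair passed after adjustment, and with these group sizes none could.

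**Figure D4:**
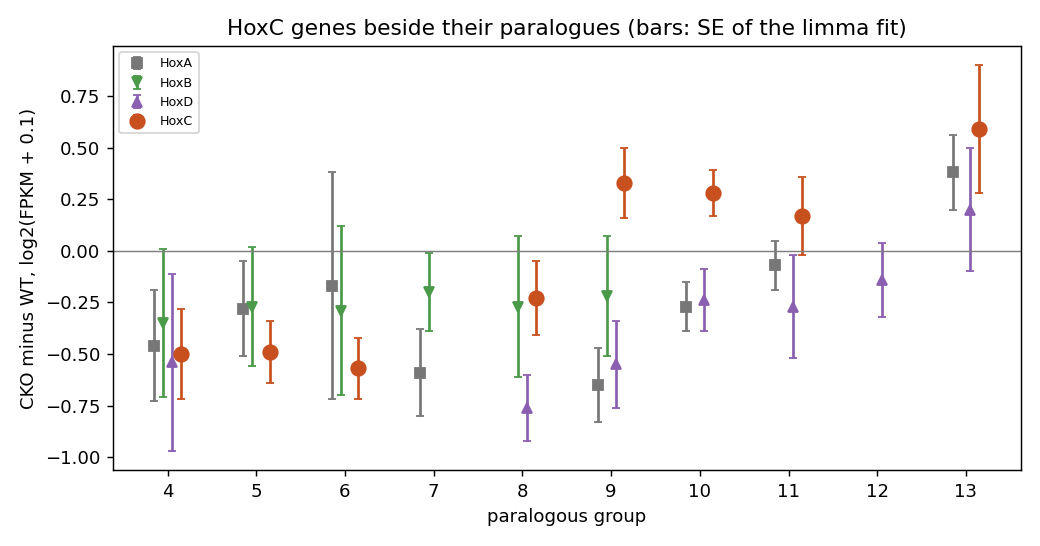
Log2 fold change between CKO and WT (vertical axis) for tested Hox genes by paralogous group (horizontal axis) in the HoxA, HoxB, HoxC and HoxD clusters. Points are limma estimates and bars their SE. In groups 9 to 11 the HoxC estimates (0.17 to 0.33) lie above 0 and those of the other clusters (-0.65 to -0.07) below it.

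In the other clusters, lower means prevailed. Of the tested genes, 9 of 11 in HoxA, 8 of 8 in HoxB and 6 of 7 in HoxD had lower levels in CKO. Among all genes tested, 6041 of 12305 were lower. Their medians were -0.27, -0.28 and -0.27, against -0.03 in HoxC, where 4 of 8 were lower. The 8 HoxC genes include Hoxc13, which passed the filter only through its CKO values. With no filter, and with a mean of at least 1 FPKM, the HoxC median was -0.23, near those of the other clusters. None of the tested genes of these clusters passed the adjusted threshold in limma without the block. In HoxA, HoxB and HoxD, 2, 1 and 2 genes had an unadjusted p under 0.05 in limma, a level that 8.31% of all genes tested reached. With the replicate block, Hoxa7 (adjusted p = 0.0307), Hoxa9 (0.00942), Hoxb3 (0.0281), Hoxd8 (0.00497) and Hoxd9 (0.0278) passed and fell, as Hoxc6 did. In that fit 2.81% of all genes tested passed.

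Genes on either side of the cluster were examined for the same differences. Of the 10 nearest protein-coding genes, 8 were tested, and 6 had higher and 2 had lower values in CKO, with log2 fold changes of -0.25 to 0.51. None of the 8 passed the adjusted threshold with or without the block, and 0 had an unadjusted p under 0.05. Among genes that act with or on Hox genes, the TALE homeodomain partners of the Meis, Pbx and Pknox families (9 tested, 1 higher, 8 lower) had a median of -0.11. The Polycomb, trithorax and Ctcf genes (8 tested, 5 higher, 3 lower) had a median of 0.07, and none of these 17 had an unadjusted p under 0.05 or was called with the block. Of the trunk and Hox cluster regulators, 3 of 6 were tested and all 3 were lower. Among them, Aldh1a2, which makes the retinoic acid that induces 3' Hox genes, passed with the block (adjusted p = 0.00497) but not without it (adjusted p = 0.739 in limma). Aldh1a2 had 4.93, 11.7 and 11.3 FPKM in WT and 2.73, 7.17 and 7.30 in CKO, so replicate 1 was the lowest in both groups and the groups overlapped.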

How the data were processed

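The authors sequenced stranded mRNA libraries of WT and CKO limb bud cells and deposited 1 table of FPKM, with 1 column per library and replicates not pooled. The submitters' processing notes list cutadapt 2.5, HISAT2 2.1.0 and featureCounts 1.6.3 among the tools, and the build mm10 (GRCm38). FPKM multiplied by the merged exon length of GENCODE vM21 gave whole reads, within 0.1, for 94.7% to 95.3% of low values. This put 17143034 to 24627737 reads on the listed genes. In CKO replicates 2 and 3, these reads (21193385 and 24627737) exceeded the library sizes that the FPKM imply (19146570 and 23848048). The reason was not tested. Log2(FPKM + 0.1) of genes with a mean of at least 0.5 FPKM was compared with limma 3.58.1 (trend, R 4.3.3), with Benjamini-Hochberg adjustment over all 12305 genes. The test was checked in simulated data with independent noise for each library, which leaves out any likeness between libraries of the same replicate number. Members and lists were chosen with earlier results of these data known. Every HoxC gene is named, as are paralogues, limb type genes and listed genes past the adjusted threshold in either fit. Deviations from the group means of libraries with the same replicate number correlated at 0.636, 0.443 and 0.266 across genes. WT replicate 2 correlated more with CKO replicate 3 (0.495) than with CKO replicate 2. WT replicate 3 correlated more with CKO replicate 2 (0.307) than with CKO replicate 3. Numbers were taken to pair the libraries, although these correlations set only the pair of replicate 1 above other pairs. The labels do not say what a number stands for. Alternatives were other pseudocounts, filters and scalings, no trend, voom on recovered reads, the block, each library left out, and replicates 2 and 3 alone. The study calls the libraries of a group biological replicates, without saying how many embryos each holds.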

Additional observations from a re-analysis of the deposited data

How the results depend on the processing

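The count of HoxC genes past the adjusted threshold was 0 and stayed at 0 under other pseudocounts, filters, scalings, no trend, voom and each library left out in turn. It was 1 with the replicate block, 1 with voom and the replicate block together, and 3 with replicates 2 and 3 alone. Of all genes tested, 2.81% passed with the block and 15.0% with replicates 2 and 3 alone. The share for voom with the block is not given, so that count has no background to be read against. The block changed no other call of a HoxC gene than that of Hoxc6. The cause of these changes was not tested. The pairing behind the block rests mainly on replicate 1. WT replicates 2 and 3 correlated more with CKO replicates 3 and 2 (0.495 and 0.307) than with their own numbers (0.443 and 0.266). The median log2 fold change over the tested HoxC genes, -0.03, ranged from -0.17 to 0.11 with each library left out, and was -0.23 with no filter and with a mean of at least 1 FPKM, where 9 and 7 genes entered. No tested HoxC gene changed its sign in any alternative, median-ratio and quantile scaling included. Of 135 gene and alternative pairs, 5 gained significance, all of Hoxc4, Hoxc5 or Hoxc6. Depth limits Hoxc12 and Hoxc13, which had at most 17 and 36 reads.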
